A study of Mus musculus with 34 samples.

Results

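The blood response to lipopolysaccharide (LPS) in mice that also received ALY688 was described from 7 libraries of wild-type mice given ALY688 with LPS (ALY688+LPS) set against 10 libraries of wild-type mice given ALY688 and no LPS (ALY688). These 17 libraries, picked by their treatment label, are part of 30 with counts among 34 labelled samples. Each holds messenger RNA from the blood of 1 numbered mouse, mice 1, 3, 4, 6, 7, 8 and 10 with LPS and mice 1 to 10 without it. ALY688 is an agonist of the adiponectin receptors by the series title, and it was given to the mice of all 17 libraries. The 4 mice given LPS alone and the 9 given phosphate-buffered saline (PBS), also wild type, entered only where the responses with and without ALY688 were set side by side. The labels and series text name no dose, time, sex or age. The series text speaks of plasma for a first experiment, with and without ALY688, and of whole blood for a sublethal LPS model, while each sample is labelled blood. LPS and experiment therefore cannot be told apart in the comparison of ALY688+LPS with ALY688.

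LPS, the endotoxin of Gram-negative bacteria, is bound by CD14 and MD-2 and sensed by the receptor TLR4. TLR4 signals through the adaptor MyD88 to NF-kB and inflammatory cytokines, and through TRIF to interferon regulatory factors, interferon-beta and interferon-induced genes. In blood, endotoxin is known to mobilise neutrophils from the marrow and to reduce circulating lymphocytes, and inhibitors such as A20, SOCS3 and the interleukin-1 receptor antagonist are induced as brakes on the response.

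Total counts ran from 10087871 to 15349120 in ALY688+LPS mice and from 10893714 to 12514008 in ALY688 mice. Globin transcripts, the haemoglobin messages of young red cells, took 40.5% ± 10.97 of the counts in ALY688+LPS mice (SD, n = 7) and 49.2% ± 6.51 in ALY688 mice (SD, n = 10), a difference of −8.75 points with an exact two-sided permutation p of 0.0569 (0.0853 adjusted over 3 library measures). Mice 6 and 8 of the ALY688+LPS group and mouse 7 of the ALY688 group stood apart, with fewer than 16000 genes with a count and globin shares of 53.6%, 54.3% and 60.8%. Mouse 4 stood apart in another way: on the first principal component, 51.0% of the variance, it lay at 31.9, against 63.6 to 77.9 for the other ALY688+LPS mice and −56.2 to −28.8 for the ALY688 mice. Red cell, leukocyte and platelet markers were present as the label blood implies. Of the markers of liver, muscle, skin and fat, no library held more than 0.336 CPM summed over a tissue. Endothelial markers summed to 1.36 to 4.61 CPM in ALY688+LPS mice and to 0.882 to 5.07 CPM in ALY688 mice. CPM here is the count scaled to the library's total and its TMM factor, the scale of all levels given.

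The response was wide and ran in both directions. Of 12266 genes tested, 3236 (26.4%) rose and 3267 (26.6%) fell in ALY688+LPS mice at an adjusted p below 0.05 (edgeR's quasi-likelihood test with Benjamini-Hochberg adjustment), 53.0% in all. With totals in place of TMM factors for scaling, 1846 genes rose and 1204 fell, so that 60.5% of the calls were rises, against 49.8%. Rises reached further than falls: 892 genes (7.27%) were higher by more than 2-fold and 569 (4.64%) lower by more than 2-fold, together 11.9%. A log2 fold change of 3 or more was reached by 184 of the genes that rose, and one of −3 or less by 28 of those that fell. For 2362 genes (19.3%) no ALY688+LPS mouse overlapped any ALY688 mouse. The median log2 fold change over all genes tested was −0.05. The shares over all genes, 26.4% higher and 26.6% lower, are those to set beside each list's counts below.

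**Figure D1:**
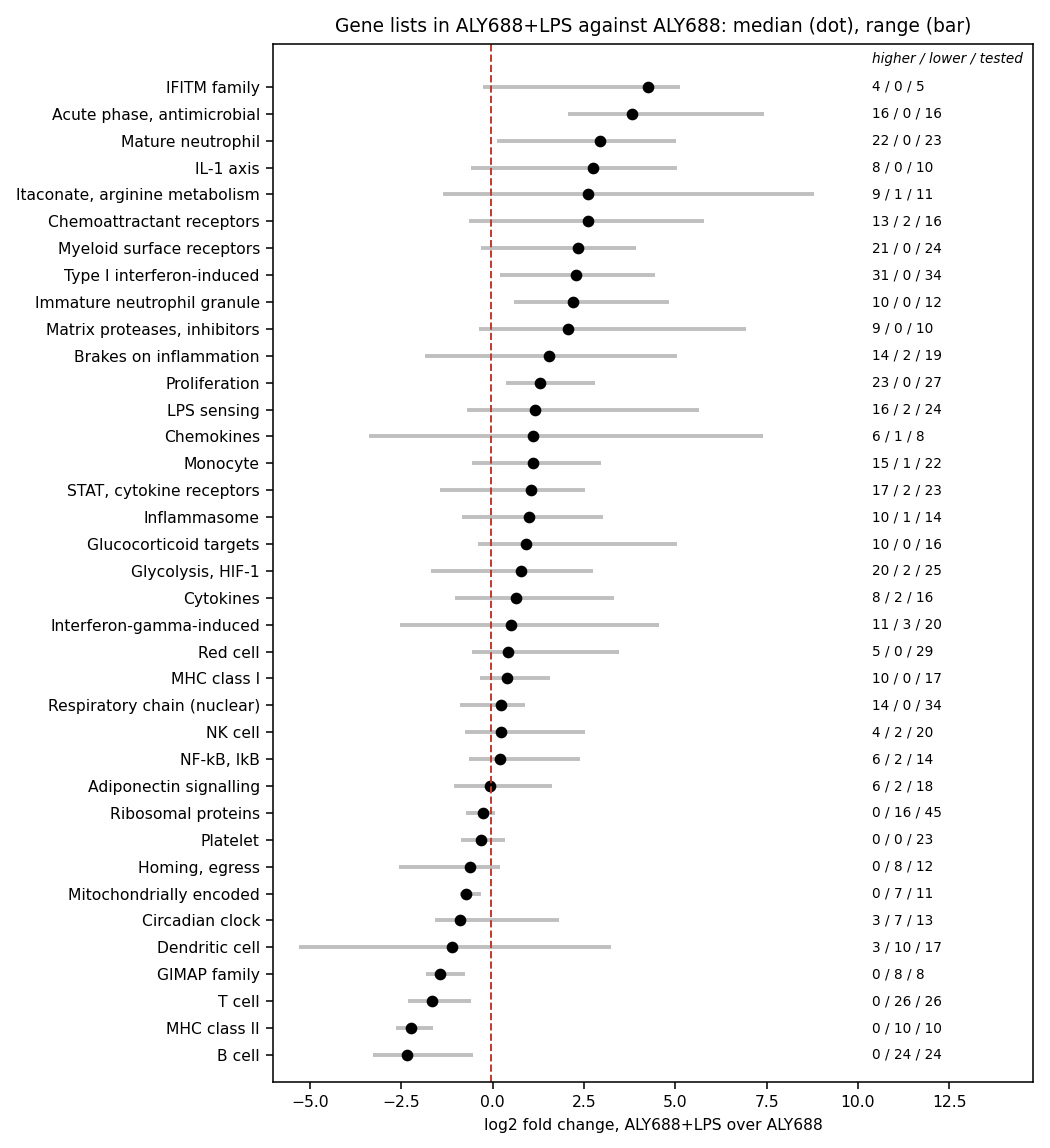
Median (dot) and range (bar) of the log2 fold change of ALY688+LPS over ALY688 for 37 gene lists, 1 list per line, with the number of members called higher, called lower and tested at the right. The dashed line is the median of all genes tested, −0.05. Neutrophil, acute phase and interferon-induced lists lie to the right, and B cell, T cell and class II antigen presentation lists to the left.

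Most listed genes of LPS sensing rose. Of 24 genes of LPS sensing, 16 were higher and 2 lower in ALY688+LPS mice, with a median log2 fold change of 1.16. Tlr4, the LPS receptor, had a lowest, median and highest level of 17.1, 30.1 and 31.8 CPM in ALY688+LPS mice, against 3.88, 5.24 and 6.99 CPM in ALY688 mice. The groups did not overlap, and the log2 fold change was 2.36 ± 0.13 (SE, adjusted p = 2.53e-11). Tlr2, the receptor of bacterial lipoproteins, rose by 2.74 ± 0.13 and Tlr13, a sensor of bacterial ribosomal RNA, by 2.40 ± 0.12 on the log2 scale. Myd88, the adaptor shared by these receptors, had a median of 112.7 CPM in ALY688+LPS mice and 27.9 CPM in ALY688 mice (2.03 ± 0.09). Tlr9, the receptor of unmethylated DNA that B cells and plasmacytoid dendritic cells carry, went the other way, with a median of 14.3 CPM in ALY688+LPS mice and 20.5 CPM in ALY688 mice (−0.71 ± 0.16). The other member that fell, Tab1, a partner of the kinase TAK1, did so by 0.34 on the log2 scale, and it missed the threshold without any one of ALY688+LPS mice 1, 3, 4, 6 and 7 and ALY688 mice 1, 5, 6 and 8 (adjusted p = 0.0505 to 0.0944). Neutrophil markers moved with this list: all 7 were higher, and they summed to between 5823 and 13826 CPM in ALY688+LPS mice, against 557 to 1541 CPM in ALY688 mice. Their part in these and the following results was not tested. In blood, more cells of a type and more RNA per cell cannot be told apart, here and for every list below.

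Of 14 NF-kB subunits and regulators, 6 were higher and 2 lower, with a median log2 fold change of 0.19. Nfkbia, which encodes the inhibitor that holds NF-kB in the cytoplasm and is itself an NF-kB target, had a lowest, median and highest level of 73.9, 172.6 and 222 CPM in ALY688+LPS mice, against 37.9, 46.1 and 54.4 CPM in ALY688 mice (1.81 ± 0.16). The nuclear IkB proteins Nfkbiz and Bcl3 rose by 2.40 ± 0.16 and 1.61 ± 0.13. Rel, a subunit used by lymphocytes, and Ikbkb, the activating kinase, fell by 0.63 and 0.66.

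Most brakes on inflammation rose. Of 19 such genes tested (20 listed), 14 were higher and 2 lower, with a median log2 fold change of 1.55. Il1rn, the interleukin-1 receptor antagonist, had a lowest, median and highest level of 30.04, 144.8 and 188.5 CPM in ALY688+LPS mice, against 4.33, 6.95 and 10.3 CPM in ALY688 mice, and its log2 fold change was 4.24 ± 0.30 (adjusted p = 1.67e-09). Its lowest ALY688+LPS value, in mouse 4, lay above every ALY688 mouse. Il1r2, the interleukin-1 decoy receptor, rose by 5.04 ± 0.38 and Il18bp, which binds interleukin-18, by 3.42 ± 0.23. Socs3, the inhibitor of STAT3 signalling, had a median of 224.6 CPM in ALY688+LPS mice and 29.2 CPM in ALY688 mice (2.98 ± 0.16). Sigirr, an inhibitory receptor of the interleukin-1 family, and the deubiquitinase Otud1 fell by 1.30 and 1.85 on the log2 scale without overlap between the groups.

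Cytokine messages rose in part. Of 16 cytokines tested (25 listed), 8 were higher and 2 lower, with a median log2 fold change of 0.64. Tnf had a lowest, median and highest level of 5.83, 17.4 and 36.4 CPM in ALY688+LPS mice, against 0.895, 2.15 and 3.90 CPM in ALY688 mice. Every ALY688+LPS mouse lay above every ALY688 mouse, and the log2 fold change was 3.32 ± 0.31 (adjusted p = 6.01e-08). Il1b, the interleukin-1 beta precursor, had 345, 534 and 663 CPM in ALY688+LPS mice, against 45.8, 68.9 and 131.7 CPM in ALY688 mice (2.73 ± 0.23). Ebi3, a subunit of interleukins 27 and 35, rose by 3.29 ± 0.23, and Osm, oncostatin M, by 1.82 ± 0.15. Il12a, the p35 subunit of interleukin-12, and Tnfsf10, the death ligand TRAIL, fell by 1.03 and 0.72, and their groups overlapped. The interleukin-1 axis as a list had 8 of 10 tested members higher and none lower, at a median of 2.75, with Il1f9, a neutrophil and epithelial member of the family, at 105.4 CPM in ALY688+LPS mice and 9.66 CPM in ALY688 mice.

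Il10 and Il6, both cytokines of the endotoxin response, stood below the filter for testing and are given as counts. Il10, the anti-inflammatory interleukin-10, had 147 counts spread over 7 of 7 ALY688+LPS libraries and 0 counts in 10 ALY688 libraries. Mice 1 and 7 held 54 and 43 of those counts and mice 4 and 8 held 1 each. Il6 had 70 counts in 5 of 7 ALY688+LPS libraries, 41 of them in mouse 1, and 21 counts in 6 of 10 ALY688 libraries. Ifnb1, which encodes interferon-beta, had 0 counts in all 17 libraries.

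Chemokine and chemoattractant genes changed on both the ligand and the receptor side. Of 8 chemokines tested (21 listed), 6 were higher and 1 lower, with a median log2 fold change of 1.10. Cxcl2, a neutrophil attractant, had a lowest, median and highest level of 15.02, 57.9 and 68.8 CPM in ALY688+LPS mice, against 0, 0.0701 and 1.00 CPM in ALY688 mice (7.41 ± 0.54), and it reached 8.01 without ALY688 mouse 5. Cxcl10, the interferon-induced attractant of T cells, had 1.43, 3.88 and 7.59 CPM in ALY688+LPS mice, against 0.273, 1.04 and 1.79 CPM in ALY688 mice. Mouse 4 alone lay within the ALY688 range, and the log2 fold change was 2.18 ± 0.33 (adjusted p = 1.35e-05). Cxcl12, the marrow-retention chemokine, fell by 3.38 on the log2 scale. It ran from 0.0426 to 0.555 CPM in ALY688+LPS mice and from 0 to 13.1 CPM in ALY688 mice, so the groups overlapped. Of 16 chemoattractant receptors tested (17 listed), 13 were higher and 2 lower, at a median of 2.60. Cxcr2, Fpr1 and Fpr2 among them are receptors of neutrophils, Cxcr2 is itself one of the 7 neutrophil markers, and the summed level of those markers moved with this list. The formyl peptide receptors Fpr1 and Fpr2 had medians of 308 and 279.7 CPM in ALY688+LPS mice and of 4.51 and 5.07 CPM in ALY688 mice, with log2 fold changes of 5.78 ± 0.25 and 5.66 ± 0.29. Cxcr2, the receptor of Cxcl2 on neutrophils, rose by 2.94 ± 0.16, while Cxcr4, the receptor of Cxcl12, and Cx3cr1, a marker of patrolling monocytes, fell by 0.65 and 0.51.

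**Figure D2:**
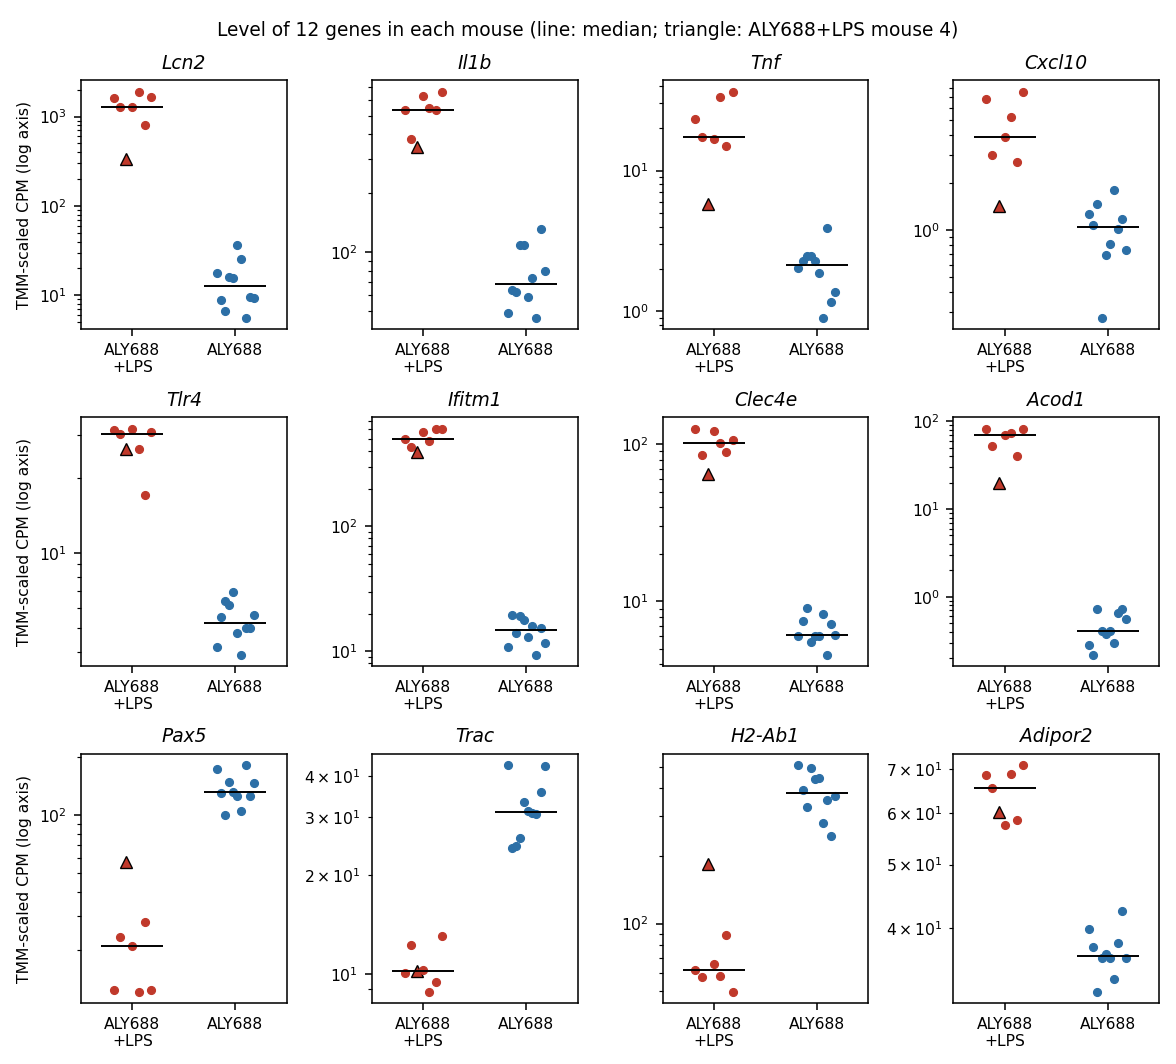
Level of 12 genes in TMM-scaled CPM on a log axis, 1 point per mouse, with ALY688+LPS (7 mice) left of ALY688 (10 mice), a line at each group's median and a triangle for ALY688+LPS mouse 4. The groups are separate for all 12 genes except Cxcl10, where mouse 4 lies among the ALY688 mice. Mouse 4 is the lowest ALY688+LPS mouse for Lcn2, Il1b, Tnf, Cxcl10, Ifitm1, Clec4e and Acod1, and the highest for Pax5 and H2-Ab1.

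Interferon-induced genes rose almost as a block. Of 34 type I interferon-induced genes, 31 were higher and none lower, with a median log2 fold change of 2.28. Oasl2, an antiviral oligoadenylate synthetase-like protein, had a lowest, median and highest level of 251.7, 352 and 589 CPM in ALY688+LPS mice, against 24.5, 43.1 and 62.0 CPM in ALY688 mice (3.20 ± 0.23). The groups were separate for this gene, as they were for Rtp4, a transmembrane chaperone (3.17 ± 0.23), Zbp1, a sensor of Z-form nucleic acids (2.14 ± 0.18), and Trim30a (1.65 ± 0.13). Of the 5 members of the IFITM family, which block virus entry, 4 rose, and Ifitm1 gave one of the clearest differences of the table: 394, 501 and 606 CPM in ALY688+LPS mice, against 9.31, 14.6 and 19.5 CPM in ALY688 mice (5.13 ± 0.18, adjusted p = 3.35e-13). Ifitm6, Ifitm3 and Ifitm2 rose by 4.36 ± 0.21, 4.25 ± 0.35 and 3.47 ± 0.20.

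Genes induced by interferon-gamma divided. Of 20 tested (22 listed), 11 were higher and 3 lower, at a median of 0.51. Gbp2, a guanylate-binding protein that coats intracellular microbes, had 103, 162.6 and 845 CPM in ALY688+LPS mice, against 9.60, 13.3 and 18.5 CPM in ALY688 mice (4.54 ± 0.39). Mouse 6 held its highest level. Tgtp2, an immunity-related GTPase whose reads may be shared with the near-identical Tgtp1, rose by 3.70 ± 0.29, and Irgm1 and Irgm2 by 1.84 ± 0.15 and 1.68 ± 0.11. Ciita, the master regulator of class II antigen presentation, fell by 2.53 ± 0.33, Gbp8 by 0.97 and the transcription factor Irf8 by 0.66. In the class I pathway 10 of 17 members were higher and none lower, at a median of 0.40, among them H2-D1 (1.29 ± 0.21).

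Short promoter stretches were read because these genes moved together. They are given 5′ to 3′ on the gene's strand (RefSeq, GRCm38.p6), end at or before the annotated start, and carry the searched motif in capitals, either GAAA and GAAA parted by any 2 bases (interferon response element type) or GGGA and TTTCC parted by any 1 base (NF-kB type), in either orientation.
Gbp2, chr3:142620579-142620638, plus strand: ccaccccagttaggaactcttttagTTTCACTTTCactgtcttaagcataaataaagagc
Cxcl10, chr5:92349068-92349127, minus strand: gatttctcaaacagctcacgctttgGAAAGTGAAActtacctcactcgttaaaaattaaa
Tgtp2, chr11:49064248-49064307, minus strand: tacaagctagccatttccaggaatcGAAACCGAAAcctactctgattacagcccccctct
Irgm2, chr11:58214888-58214947, plus strand: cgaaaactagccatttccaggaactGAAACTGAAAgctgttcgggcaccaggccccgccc
Cxcl2, chr5:90903777-90903836, plus strand: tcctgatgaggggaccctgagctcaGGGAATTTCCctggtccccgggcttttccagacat
Nfkbia, chr12:55492648-55492701, minus strand: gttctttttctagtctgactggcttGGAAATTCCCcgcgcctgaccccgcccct
The interferon-type motif starts 59, 213, 70 and 64 bases before the start in Gbp2, Cxcl10, Tgtp2 and Irgm2, and the NF-kB-type motif 97 and 29 bases before it in Cxcl2 and Nfkbia. All stretches shown are of genes that rose. Matches were also found in Stat4 (interferon type) and Ccr3 (NF-kB type), whose log2 fold changes were −0.59 and −2.32. In the 250 bases before the start, the interferon-type motif occurred in 6.96% of 876 windows of genes higher by more than 2-fold (699 of 892 genes had a window), in 1.90% of 474 windows of genes lower by more than 2-fold (368 of 569 genes) and in 2.96% of 11611 windows of all tested genes. The NF-kB-type motif occurred in 0.685%, 0.633% and 0.379% of the same windows, and the STAT-type motif, TTC and GAA parted by any 3 bases and so its own reverse complement, in 7.42%, 6.54% and 6.01%. The NF-kB-type shares rested on 6, 3 and 44 windows. Both strands were searched, and motifs of different types overlapped in 3 windows of the genes that were higher by more than 2-fold and in 10 windows of all tested genes. These shares were not tested, and a match is a run of letters, not a bound site.

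Acute phase and mature neutrophil genes rose in all but 1 of the members tested. All 16 acute phase and antimicrobial genes tested (20 listed) were higher, at a median log2 fold change of 3.82. No member overlapped between the groups, where 19.3% of all genes tested were without overlap. Lcn2, lipocalin-2, which starves bacteria of iron by binding their siderophores, had a lowest, median and highest level of 335, 1273 and 1903 CPM in ALY688+LPS mice, against 5.56, 12.6 and 36.2 CPM in ALY688 mice. Its log2 fold change was 6.39 ± 0.45 (adjusted p = 5.99e-10), with mouse 4 lowest. Wfdc21, a whey acidic protein of the antimicrobial type, rose by 5.63 ± 0.34, Pglyrp1, which binds bacterial peptidoglycan, by 3.35 ± 0.17, and Anxa1, annexin A1, by 3.29 ± 0.15. Saa3, an acute phase serum amyloid A, rose by 7.42 ± 1.09 and by 9.47 without ALY688 mouse 4, which held 11.7 CPM where the ALY688 median was 0.0726 CPM. Its ALY688+LPS levels ran from 48.8 CPM in mouse 8 to 533 CPM in mouse 1.

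Of 23 mature neutrophil genes, 22 were higher and none lower, at a median of 2.94. Clec4e, the Mincle receptor of mycobacterial and damage-associated glycolipids, had 65.0, 101.8 and 126.0 CPM in ALY688+LPS mice, against 4.55, 6.09 and 9.12 CPM in ALY688 mice (3.92 ± 0.15, adjusted p = 8.25e-13). Itgam, the integrin CD11b, and Fcgr3, an activating antibody receptor, rose by 3.04 ± 0.16 and 2.42 ± 0.13. Of 12 immature neutrophil granule genes tested (18 listed), 10 were higher and none lower, at a median of 2.19, with the secreted chitinase-like protein Chil3 at a median of 408 CPM in ALY688+LPS mice and 57.2 CPM in ALY688 mice. Itgb2l, an integrin subunit of maturing granulocytes, rose by 4.84 ± 0.65 and by 5.63 without ALY688 mouse 6. The primary granule genes Mpo and Elane, outside the rule for named genes and looked up for their role, had 28 and 22 counts in ALY688+LPS libraries together and 71 and 22 in ALY688 libraries. Of 10 matrix proteases and inhibitors tested (13 listed), 9 were higher and none lower. Mmp8, neutrophil collagenase and itself one of the neutrophil markers summed above, rose by 4.04 ± 0.25. Mmp25 rose by 4.30 ± 0.23 and Adam8 by 2.23 ± 0.14.

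Monocyte genes rose in most members. Of 22, 15 were higher and 1 lower, at a median of 1.09. Cebpb, a transcription factor of inflammatory macrophages and emergency granulopoiesis, had a median of 356 CPM in ALY688+LPS mice and 45.5 CPM in ALY688 mice (2.97 ± 0.17). Treml4 and Adgre4, surface receptors of patrolling monocytes, rose by 2.27 ± 0.12 and 1.69 ± 0.13, while Cx3cr1 of the same cells was the member that fell, and it passed no longer without ALY688+LPS mouse 1 (−0.44, adjusted p = 0.0518). Of the 5 monocyte cell type markers 2 were higher and 1 lower, and they summed to 646 to 814 CPM in ALY688+LPS mice and to 267 to 637 CPM in ALY688 mice. Activating and inhibitory receptors of myeloid cells were nearly all higher, 21 of 24 with none lower at a median of 2.35, among them Pirb, the paired immunoglobulin-like inhibitory receptor (2.46 ± 0.13). Genes of the inflammasome, its sensors, caspases and gasdermin, were higher in 10 of 14 and lower in 1, at a median of 0.99. Casp4, the mouse caspase-11 that binds LPS in the cytosol, had a median of 43.0 CPM in ALY688+LPS mice and 6.34 CPM in ALY688 mice (2.61 ± 0.13), and Mefv, pyrin, rose by 3.01 ± 0.19. Aim2, the sensor of double-stranded DNA, fell by 0.84.

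Genes of activated phagocyte metabolism gave some of the highest folds. Of 11 genes of itaconate and arginine metabolism tested (12 listed), 9 were higher and 1 lower, at a median of 2.60. Acod1, which makes itaconate, had a lowest, median and highest level of 19.8, 70.1 and 83.0 CPM in ALY688+LPS mice, against 0.216, 0.407 and 0.731 CPM in ALY688 mice (6.95 ± 0.30, adjusted p = 3.39e-12). Nos2, the inducible nitric oxide synthase, was at 5.71, 23.9 and 35.0 CPM in ALY688+LPS mice and between 0 and 0.217 CPM in ALY688 mice, with a log2 fold change of 8.81 ± 0.50 that became 9.66 without ALY688 mouse 8. Odc1, which makes putrescine from ornithine, fell by 1.37 with groups that overlapped. Of 25 genes of glycolysis and the hypoxia response, 20 were higher and 2 lower at a median of 0.77, led by the lactate exporter Slc16a3 (2.74 ± 0.15), the hexokinase Hk3 (2.08 ± 0.15) and the glucose transporter Slc2a1 (1.72 ± 0.09). Pdk1, a kinase that closes pyruvate dehydrogenase, fell by 1.58. Nuclear-encoded respiratory chain subunits changed little, 14 of 34 higher and none lower at a median of 0.23, while 7 of 11 mitochondrially encoded transcripts tested (13 listed) were lower and none higher at −0.73. In iron handling 8 of 14 genes tested (15 listed) were higher and none lower, among them Steap4, a metalloreductase (4.96 ± 0.27), and Hmox1, haem oxygenase, with a median of 76.0 CPM in ALY688+LPS mice and 8.14 CPM in ALY688 mice.

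B cell and T cell genes fell without exception among those listed. All 24 B cell genes were lower, at a median log2 fold change of −2.34. Pax5, the B lineage factor, had a lowest, median and highest level of 12.1, 20.9 and 57.1 CPM in ALY688+LPS mice, against 99.8, 131.3 and 181.3 CPM in ALY688 mice (−2.53 ± 0.30, adjusted p = 8.29e-07). The highest ALY688+LPS value was that of mouse 4 and lay below every ALY688 mouse. Cd72, a B cell co-receptor, had a median of 7.44 CPM in ALY688+LPS mice and 30.3 CPM in ALY688 mice (−1.94 ± 0.15). Fcer2a and Cr2, both carried by mature B cells, were among the 8 largest falls of genes averaging 10 CPM or more, −3.28 ± 0.46 and −2.85 ± 0.47, and these became −3.89 and −3.76 without mouse 4. All 26 T cell genes were lower too, at a median of −1.66. Trac, which encodes the invariable end of the receptor's alpha chain, had 8.82, 10.2 and 13.1 CPM in ALY688+LPS mice, against 24.3, 31.2 and 43.2 CPM in ALY688 mice (−1.61 ± 0.14), and mouse 4 lay at the middle of its group here. Cd4 fell by 2.12 ± 0.21 and Cd3g by 1.83 ± 0.19. The 5 B cell type markers summed to 94.8 to 494 CPM in ALY688+LPS mice and to 598 to 1267 CPM in ALY688 mice, and the 5 T cell markers to 29.7 to 47.1 CPM in ALY688+LPS mice and to 95.6 to 193.6 CPM in ALY688 mice. None of these 10 markers was at 0.

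Lymphocyte programmes beside the identity genes moved with them. All 8 GIMAP genes tested, small GTPases of lymphocyte survival, were lower at a median of −1.44, with Gimap1 at a median of 16.9 CPM in ALY688+LPS mice and 59.1 CPM in ALY688 mice (−1.77 ± 0.14). Of 12 receptors of homing and egress, 8 were lower and none higher at −0.62, among them S1pr1, the sphingosine phosphate receptor that lets lymphocytes leave lymph nodes (−2.21 ± 0.27), and Ccr7, which guides them in (−2.18 ± 0.25). Il27ra, the receptor of interleukin-27, gave the fall with the smallest p, 8.404, 10.7 and 13.8 CPM in ALY688+LPS mice against 28.5, 38.3 and 51.8 CPM in ALY688 mice (−1.84 ± 0.13, adjusted p = 9.31e-10). Rag1, a recombinase of lymphocyte precursors, had the largest fall by log2 fold change among the named genes that passed 10 CPM, but the difference rested on 2 ALY688 mice at 25.3 and 77.4 CPM beside 8 between 0.456 and 1.75 CPM, and the groups overlapped. Without ALY688 mouse 9 it was −2.92 in place of −4.49. The part of the lower B and T cell marker levels in these falls was not tested.

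Class II antigen presentation fell in every listed gene, 10 of 10 at a median of −2.25. H2-Ab1, the beta chain of the I-A molecule, had a lowest, median and highest level of 49.6, 62.2 and 183.5 CPM in ALY688+LPS mice, against 245, 383 and 506 CPM in ALY688 mice (−2.26 ± 0.27, adjusted p = 7.93e-07). Mouse 4 gave the highest ALY688+LPS value here, as it did for H2-Eb1 (−2.17 ± 0.27). Dendritic cell genes were lower in 10 of 17 and higher in 3, at −1.11. Cd209a, a lectin of dendritic cells, was at 0, 0.111 and 0.271 CPM in ALY688+LPS mice and at 2.67, 5.22 and 8.05 CPM in ALY688 mice (−5.30 ± 0.46). The 3 members that rose were Bst2, also an interferon-induced gene (3.23 ± 0.34), Sirpa, also carried by monocytes and granulocytes (1.65 ± 0.15), and Itgax, CD11c (0.41 ± 0.14). Among 20 NK cell genes, 4 were higher and 2 lower at a median of 0.23: the cytotoxic granule genes Gzmb (2.54 ± 0.38), Gzma (1.91 ± 0.28) and Prf1 (1.31 ± 0.25) rose, and Klra8, the Ly49H receptor, fell by 0.53. Klra8 missed the threshold without any one of ALY688+LPS mice 3, 4, 6, 8 and 10 and ALY688 mice 2, 3, 4 and 9 (−0.43 to −0.54, adjusted p = 0.0509 to 0.104). Of 9 basophil and eosinophil genes tested (13 listed), 2 were higher and 4 lower. Il5ra, a chain of the interleukin-5 receptor, fell by 2.35, and Hdc, which makes histamine and is also expressed by myeloid cells, rose by 3.01 ± 0.18. Siglecf, a receptor of eosinophils, went the other way from Il5ra. It ran from 4.36 to 8.69 CPM in ALY688+LPS mice and from 1.19 to 4.47 CPM in ALY688 mice.

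**Figure D3:**
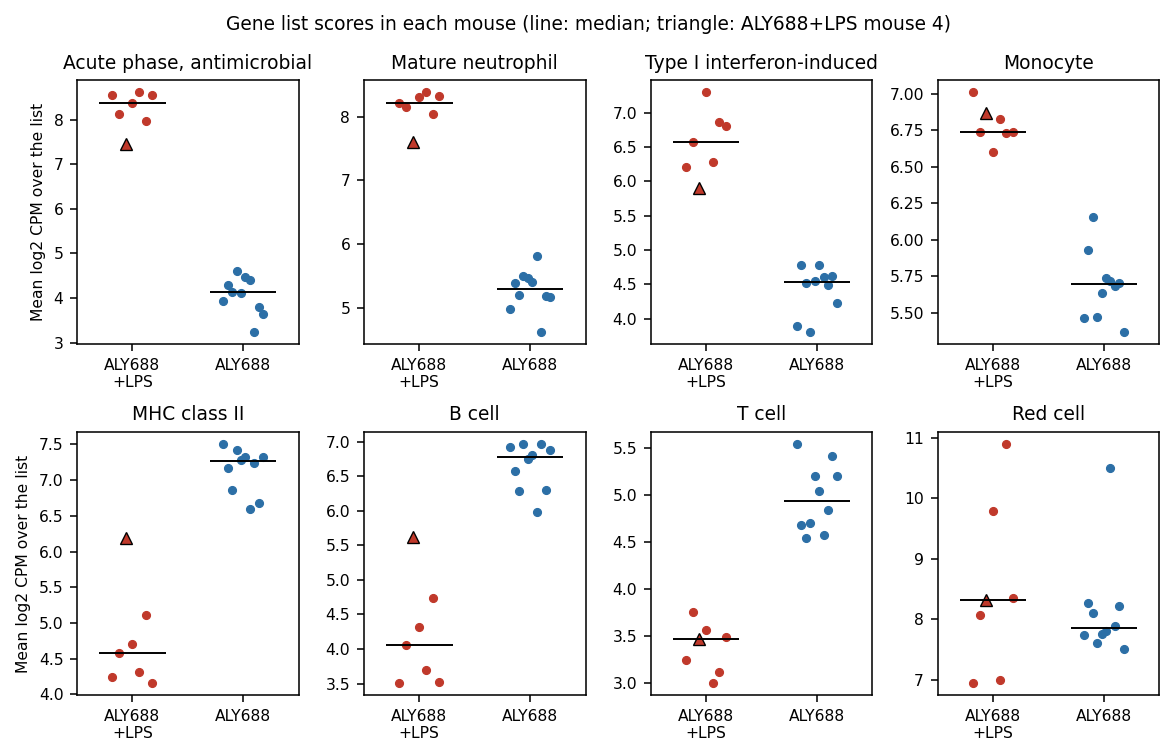
Mean log2 CPM over each of 8 gene lists, 1 point per mouse, ALY688+LPS (7 mice) left of ALY688 (10 mice), a line at the median and a triangle for ALY688+LPS mouse 4. Mouse 4 is the lowest of its group for acute phase (7.46 against a median of 8.36), mature neutrophil and type I interferon-induced genes and the highest for class II and B cell genes, and it sits within its group for T cell and monocyte genes. The red cell score is highest in mouse 8 of ALY688+LPS (10.9) and mouse 7 of ALY688 (10.5).

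Red cell and platelet genes showed few or no calls. Of 29 red cell genes tested (30 listed), 5 were higher and none lower, at a median of 0.43 that became −0.3 without ALY688+LPS mouse 8, and 0 of 7 globin genes tested (10 listed) passed. Kel and Rhag, which encode red cell membrane proteins, rose by 2.20 ± 0.70 and 3.47 ± 0.71 with groups that overlapped. Mouse 8 was the highest for both and held 338 CPM of Kel where the ALY688+LPS median was 42.2 CPM. Without mouse 8 Kel stood at 1.36 (adjusted p = 0.0779) and Rhag at 2.79, and without ALY688 mouse 7 Kel stood at 2.87. Of 23 platelet genes tested (24 listed), 0 passed, at a median of −0.31. Ppbp, a chemokine precursor of platelet granules, had 142.5, 904 and 2254 CPM in ALY688+LPS mice, against 238.5, 1671 and 4255 CPM in ALY688 mice (−0.83 ± 0.50, adjusted p = 0.173), a range within each group wider than the difference between them.

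Proliferation genes rose in 23 of 27 tested (28 listed) and fell in none, at a median of 1.29. Mcm5, a subunit of the replicative helicase, had 16.1, 39.9 and 43.8 CPM in ALY688+LPS mice, against 9.35, 13.3 and 16.7 CPM in ALY688 mice (1.31 ± 0.19), with the lowest ALY688+LPS value, that of mouse 4, inside the ALY688 range. The mitotic kinase Bub1 and motor Kif20a rose by 2.80 ± 0.41 and 1.66 ± 0.28. Immature neutrophil granule genes rose in the same mice, and their part in the proliferation list was not tested. Ribosomal protein genes were lower in 16 of 45 and higher in none, at −0.27, with Rpl12 at −0.73 ± 0.17.

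Hormone and stress programmes moved in part. Of 16 glucocorticoid targets tested (17 listed), 10 were higher and none lower at a median of 0.92, among them Sgk1 (1.16 ± 0.09) and Cebpd (1.79 ± 0.18). Lists can share members, so their counts are not separate results. Il1r2, at 5.04, had the highest log2 fold change of this list, of the interleukin-1 axis and of the brakes. Of 13 clock genes tested (17 listed), 3 were higher and 7 lower at −0.89: Per2 rose by 1.83 ± 0.18 and Dbp, an output gene of the clock, fell by 1.58. The hour of sampling is not given for either group. The unfolded protein response was higher in 10 of 17 and lower in 1 at 0.85, with the transcription factor Xbp1 at a median of 117.2 CPM in ALY688+LPS mice and 37.3 CPM in ALY688 mice (1.70 ± 0.11), and NRF2 targets in 9 of 20 and lower in 1 at 0.87. Heat shock genes were higher in 7 of 11 tested (13 listed) and lower in 1, the BCL2 family higher in 8 of 14 tested (16 listed) and lower in 2, and leukocyte integrins and selectins higher in 9 of 14 and lower in 1. Of 15 early response genes tested (18 listed), 7 were higher and 3 lower. Ier3 rose by 3.33 ± 0.17, whereas Egr3 fell by 1.33. STAT factors and cytokine receptors were higher in 17 of 23 and lower in 2 at 1.05, with Stat3 at 149.9, 161.9 and 181.7 CPM in ALY688+LPS mice, against 66.6, 71.4 and 77.4 CPM in ALY688 mice (1.19 ± 0.08), and Il6st, the shared interleukin-6 signalling chain gp130, lower by 1.44.

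Lipid genes changed in both directions, as did the genes tested as a whole, 26.4% higher and 26.6% lower. Nr1h3, which encodes the oxysterol receptor LXR-alpha, had 16.8, 39.3 and 61.3 CPM in ALY688+LPS mice, against 0.108, 0.915 and 1.68 CPM in ALY688 mice (5.30 ± 0.31), while its targets Scd1 and Mylip fell by 1.99 and 1.32, and 2 of 12 listed genes of this pathway were higher and 4 lower. Plin2, which coats lipid droplets, rose by 3.12 ± 0.25, and 10 of 19 fatty acid oxidation genes tested (22 listed) were higher and 3 lower. Of 20 sterol genes tested (21 listed), 8 were higher and 4 lower. Mvd and Msmo1 of the synthesis pathway rose by 1.44 ± 0.15 and 1.38 ± 0.17.

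The genes through which ALY688 is held to act were called in both directions. So were the genes tested as a whole, 26.4% higher and 26.6% lower. Of 18 genes of adiponectin signalling tested (22 listed), 6 were higher and 2 lower. Their median log2 fold change was −0.06, beside −0.05 for all genes, and with totals alone for scaling that median was 0.02. Adipor2, a receptor of adiponectin, had a lowest, median and highest level of 57.4, 65.4 and 70.9 CPM in ALY688+LPS mice, against 31.9, 36.2 and 42.5 CPM in ALY688 mice. The groups were separate, and the log2 fold change was 0.81 ± 0.08 (adjusted p = 3.61e-08). Adipor1, the other receptor, had 501, 1121 and 5950 CPM in ALY688+LPS mice, against 921, 1128 and 7335 CPM in ALY688 mice (0.07 ± 0.56, adjusted p = 0.933), and the highest values were those of mice 8 and 7, libraries with few detected genes. Its sign turned with the scaling, to −0.01 with DESeq2's size factors and −0.05 with totals alone. Without the 3 libraries of few detected genes and ALY688+LPS mouse 4, a setting chosen after seeing the data, it was −0.56 (adjusted p = 0.0355). Asah1 and Acer3, ceramidases, and Prkaa1, the catalytic AMP-activated kinase subunit, rose by 1.62 ± 0.12, 1.51 ± 0.14 and 1.10 ± 0.11. Appl2, an adaptor that binds the receptors, and Sirt1 fell by 0.90 and 0.75. Cdh13, T-cadherin, the binding protein of circulating adiponectin, had 7 counts in ALY688+LPS libraries and 11 in ALY688 libraries and was not tested.

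Other genes entered by the strength of their difference alone. The rises with the smallest p, besides those above, were Ampd3, which deaminates AMP (68.8, 81.4 and 92.8 CPM in ALY688+LPS mice, against 14.3, 16.9 and 17.9 CPM in ALY688 mice, 2.31 ± 0.08, adjusted p = 3.35e-13), the membrane traffic GTPase Rab31 (2.78 ± 0.11), Entpd3, which breaks down extracellular nucleotides (5.00 ± 0.20), Klhl2 (2.07 ± 0.09), Igfbp6 (6.26 ± 0.26), Dhrs9 (3.47 ± 0.15), the integrin Itga5 (2.43 ± 0.10), glutaredoxin Glrx (2.95 ± 0.13), Alas1, the haem synthesis enzyme used outside red cells (2.77 ± 0.12), and Il13ra1 (2.50 ± 0.11). These 10 were picked by their p, and no ALY688+LPS mouse overlapped an ALY688 mouse for any of them. The same held for 19.3% of all genes tested. Upp1, uridine phosphorylase, rose by 7.64 ± 0.38. Lipg, endothelial lipase, Prok2, a neutrophil-derived prokineticin, and Gpr84, a receptor of medium-chain fatty acids, had 12919, 5048 and 1409 counts in ALY688+LPS libraries and 2 counts each in ALY688 libraries. The ratios were 7555 (95% counting interval 2091 to 62391), 2952 (817 to 24383) and 824 (228 to 6811). These intervals pool counts over mice and leave out the spread between mice. From ALY688+LPS mouse 4 to mouse 7, Lipg ran from 8.69 to 184.5 CPM, Prok2 from 11.8 to 69.1 and Gpr84 from 1.80 to 19.7. Among the falls with the smallest p were also the ubiquitin ligase Dtx1 (−1.44 ± 0.11), the calcium channel Itpr3 (−1.72 ± 0.14), Kmo of tryptophan breakdown (−2.72 ± 0.22), Plekhn1 (−1.40 ± 0.12), Carmil2 (−2.23 ± 0.19), Cep68 (−1.33 ± 0.11), Pitpnm2 (−1.48 ± 0.13) and Gimap5 (−1.27 ± 0.11), and the largest falls included Trim7 (−3.16 ± 0.43), Tdrp (−3.06 ± 0.38), Scn4a (−2.80 ± 0.33), Ffar1 (−2.77 ± 0.38) and Srpk3 (−2.76 ± 0.39). Mouse 4 was the highest ALY688+LPS mouse for Trim7, Ffar1 and Srpk3, which stood at −4.00, −3.39 and −3.56 without it.

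The 7 ALY688+LPS mice differed among themselves in a patterned way. Mouse 4 had the lowest scores of its group for acute phase, mature neutrophil, type I interferon, IFITM, interleukin-1 and brake genes, and the highest for class II and B cell genes: its class II score of 6.19 stood against a group median of 4.58 and ALY688 scores from 6.59 to 7.51, and its B cell score of 5.62 against 4.06 and 5.98 to 6.97. Scores are means of log2 CPM over a list. For every one of these lists mouse 4 still lay outside the range of the ALY688 mice. Among called genes averaging 10 CPM or more in a group, those with the widest spread over the 7 mice included Arg1, Slc15a2, Mthfd2, Oas1e, Kel, Gmpr and Cir1. Arg1, arginase 1, ran from 1.94 CPM in mouse 6 to 43.5 CPM in mouse 1, with 36.6 CPM in mouse 4, and its log2 fold change of 4.55 became 6.97 without ALY688 mouse 3. Mthfd2, a mitochondrial folate enzyme, had 615 CPM in mouse 8 and 116.9 CPM in mouse 6, with the other 5 between 20.6 and 38.4 CPM, and its difference of 2.12 became 0.54 without mouse 8 (adjusted p = 0.47), 1.96 without mouse 6 (0.0559), 1.95 without ALY688 mouse 2 (0.0569) and 2.77 without ALY688 mouse 7. Cir1 lost its rise of 1.76 without mouse 8 (0.61, adjusted p = 0.164), and Oas1e, which may share reads with other Oas1 copies, had 2.78 and, without mouse 6, 2.09. Mice 6 and 8 are those with few detected genes and a high globin share. Across called genes the median SD of log2 CPM was 0.34 in ALY688+LPS mice and 0.31 in ALY688 mice.

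Whether the response differed without ALY688 was asked with a fit of all 4 groups, in which the interaction is the log2 fold change of ALY688+LPS over ALY688 minus that of LPS over PBS. The 2 responses share no library. Of 13476 genes, 0 (0%) passed for the interaction with edgeR, the smallest adjusted p being 0.244. At an unadjusted p under 0.05 there were 1216 genes (9.02%), against 673.8 expected if no gene differed and genes were independent. DESeq2 called 4, Klra8, Tspoap1, Ighg2c and the pseudogene Rps12-ps4, and limma-voom 0. In the same fit 6507 of these 13476 genes were called for ALY688+LPS against ALY688 and 5986 of 13476 for LPS against PBS. With shares this large, many genes would be called in both even if the 2 sets were unrelated. Both comparisons called 4355 genes, of which 4353 moved the same way, 66.9% of the first set and 72.7% of the second, and across genes, which are not independent replicates, the log2 fold changes had a Pearson r of 0.845 and a Spearman rho of 0.796. The median size of the change in genes called in both was 1.22 on the log2 scale for each. That set leaves out genes that only 1 comparison called. Tnf had a log2 fold change of 3.32 ± 0.29 with ALY688 and 3.62 ± 0.34 without it, an interaction of −0.30 ± 0.46. Il1b had 2.73 ± 0.31 and 1.94 ± 0.35 (interaction 0.79 ± 0.48), Lcn2 6.39 ± 0.44 and 6.13 ± 0.48 (0.26 ± 0.60), and Adipor2 0.80 ± 0.09 and 0.91 ± 0.11 (−0.10 ± 0.15), each with an interaction adjusted p of 0.512 or more.

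The genes nearest the interaction threshold included Klra8, with 7.43 ± 2.66 CPM in ALY688+LPS mice, 10.9 ± 3.26 in ALY688 mice, 13.5 ± 3.44 in LPS mice and 6.52 ± 1.88 in PBS mice (SD, n = 7, 10, 4 and 9). Its interaction was −1.57 ± 0.31 (adjusted p = 0.244), and its reads may be shared with other Ly49 genes. Tspoap1 had an interaction of −1.68 ± 0.38 and the immunoglobulin constant region Ighg2c of −5.53 ± 1.18. Ighg2c averaged 0.18 ± 0.208 CPM in ALY688+LPS mice, 0.528 ± 0.592 in ALY688 mice, 1.07 ± 0.781 in LPS mice and 0.0447 ± 0.0805 in PBS mice, and near-identical constant regions may share its reads. In the other direction Smim27, Shisal2b and Serpinb2, an inhibitor of plasminogen activators, stood nearest, at 1.66 ± 0.51, 4.20 ± 1.32 and 3.11 ± 0.98 (each adjusted p = 0.507). Smim27 and Shisal2b were low, averaging 0.437 to 2.10 and 0.145 to 1.17 CPM over the 4 groups. Serpinb2 averaged 12.7 ± 13.2 CPM in ALY688+LPS mice and 11.7 ± 13.5 in PBS mice. Its log2 fold change of ALY688+LPS over ALY688, 1.36, became 0.78 without ALY688+LPS mouse 1 (adjusted p = 0.175). List medians lay furthest apart for globin, platelet and red cell genes. Globin genes had a median of −0.13 with 0 of 7 called with ALY688, against −2.05 with 3 lower without it. Platelet genes had a median of −0.30 with 0 of 23 called with ALY688, against −2.07 with 19 lower without it, and red cell genes 0.44 with 6 of 29 higher, against −1.05 with 3 lower. IFITM genes had 4.25 with ALY688 and 3.15 without it, proliferation genes 1.28 and 2.20, and chemokines 1.10 and 1.93. No member of these lists passed for the interaction. The globin share, which is the summed counts of the globin genes themselves, was 30.4% ± 10.39 in LPS mice and 56.3% ± 6.22 in PBS mice. With the globin share as a covariate, 0 genes passed for the interaction. The part of that share in the list medians of both responses was not tested.

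**Figure D4:**
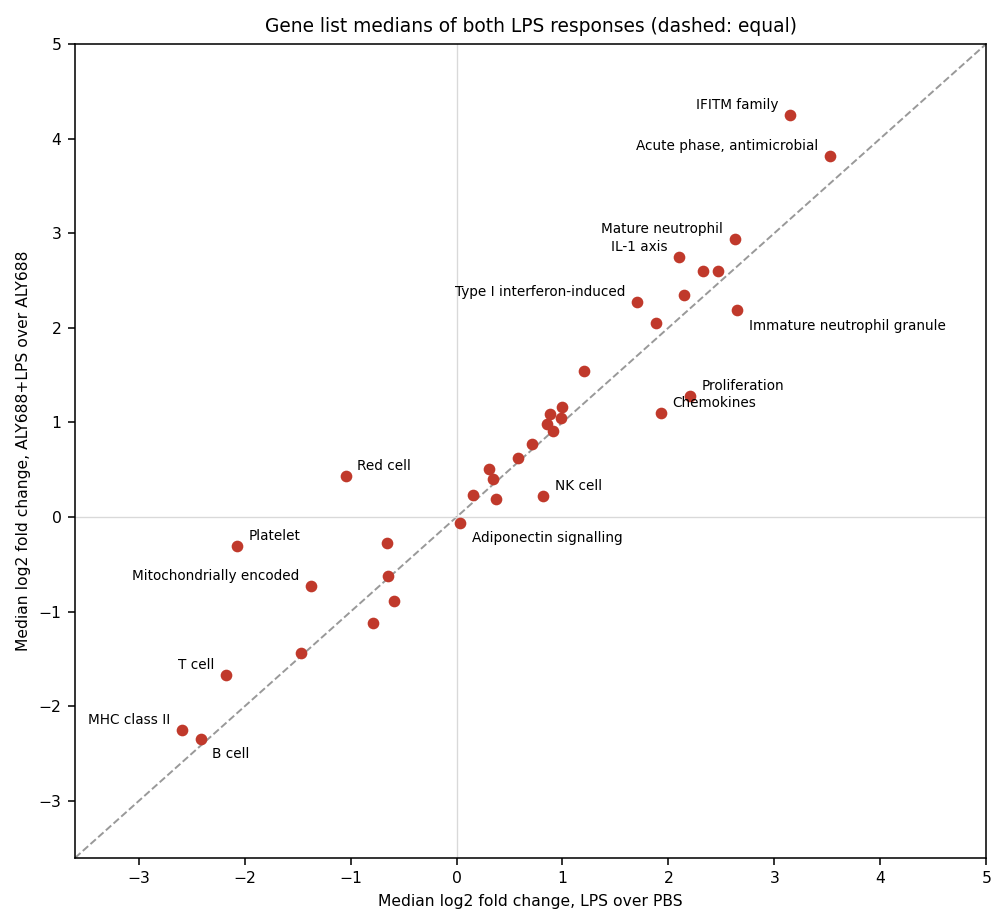
Median log2 fold change of 37 gene lists for ALY688+LPS over ALY688 (vertical axis) against LPS over PBS (horizontal axis), 1 point per list, both from the fit of 4 groups. The dashed line marks equal medians. Most lists lie close to it. Platelet (−0.30 with ALY688, −2.07 without), red cell (0.44, −1.05) and IFITM genes (4.25, 3.15) lie above it. Proliferation genes (1.28, 2.20) and chemokines (1.10, 1.93) lie below it.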

How the data were processed

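Blood RNA was sequenced from 1 mouse per library. The authors deposited raw counts per Ensembl gene. Per the submitters' processing notes they used HISAT2 2.0.5 and featureCounts 1.5.0-p3. Build, annotation and strand setting: not given in the sources used here. Hence reads of overlapping genes on opposite strands may not be told apart, since per the labels' protocols both strand-specific and non-strand-specific library kits were possible. Symbols came from GENCODE M21, which matched 54409 of 54532 IDs.

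The counts were tested with edgeR 4.0.16 (R 4.3.3): filterByExpr, TMM factors, robust quasi-likelihood fit, F-test, Benjamini-Hochberg adjustment over all genes and a threshold of 0.05, with glmTreat for changes beyond 2-fold. Levels are CPM divided by TMM factors over the 17 libraries. Scores are means of log2 CPM with a prior count of 2. The interaction was fitted over all 4 groups. DESeq2 1.42.0, limma 3.58.1 (voom), other scalings and filters, and fits without single libraries were alternatives. Each library is 1 numbered mouse by its label, and the tests treat all libraries as separate mice. The labels do not say whether equal numbers in different groups are the same animal. Ratios and their 95% intervals (exact, counting error only) are given for genes with few counts. Promoter windows of 250 bases come from RefSeq, GRCm38.p6, and Python 3.11.15, pandas 2.3.3 and matplotlib 3.10.9 served for motifs and figures.

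The members and gene lists were chosen with earlier results of these data known. Named genes were, among those past the threshold with a log2 change of 1 or more and 10 CPM on average in a group, the 12 rises and 12 falls with the smallest p and the 8 largest of each. To these were added 10 fixed genes, up to 4 members of each list by p and up to 3 against its direction, the 3 nearest the interaction threshold in each direction, and the 8 most variable among ALY688+LPS mice. A few others are counted or named for their role and marked so. Some genes that these rules name are not reported here. PBS mouse 10 and LPS mice 3, 4 and 5 are not analysed here.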

Additional observations from a re-analysis of the deposited data

Results flagged for a closer look

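A mouse is listed here where its log2 CPM, list score or library measure lay far from the rest of its group, by the gap to its nearest neighbour as a share of the group's range, past Dixon's critical value. Chance flags about 1 in 20 groups, and 47 of 446 were flagged. ALY688+LPS mouse 4 held 18 and ALY688 mouse 7 held 17.

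ALY688+LPS mouse 4 was low for Fpr1 (0.647), Fpr2 (0.689), Gpr84 (0.637), Ebi3 (0.578), Hdc (0.608), Il1f9 (0.592), Il1rn (0.61), Nfkbia (0.607), Nfkbiz (0.571), Trim30a (0.75), Upp1 (0.616) and Wfdc21 (0.602). It was also low for the scores of the interleukin-1 axis (0.596), the IFITM family (0.654) and the matrix proteases (0.576), and high for Ciita (0.619), H2-Eb1 (0.584) and Srpk3 (0.612). Mouse 8 of the same group was low for Tlr4 (0.688) and Tspoap1 (0.692) and high for the iron score (0.599), and mouse 6 was high for Bst2 (0.629).

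ALY688 mouse 7 had few detected genes (0.695) and a low total count (0.506). It was high for Adipor1 (0.769), Cir1 (0.556), Igfbp6 (0.536), Kel (0.663), Mthfd2 (0.541) and Rhag (0.527) and for the red cell (0.746), globin (0.662), respiratory chain (0.646), unfolded protein response (0.467), NRF2 (0.566) and iron (0.473) scores, and low for Aim2 (0.652), Ikbkb (0.598) and the clock score (0.612).

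Among the other ALY688 mice, mouse 3 was high for Arg1 (0.632), Cdh13 (0.483) and Plin2 (0.471), mouse 1 low for Serpinb2 (0.646) and the adiponectin (0.547) and adhesion (0.47) scores, mouse 2 low for Nr1h3 (0.544) and mouse 8 high for Tlr9 (0.602). The sources of these deviations were not tested.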

How the results depend on the processing

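With library totals in place of TMM factors, 1846 genes were higher, 1204 lower and 952 changed by more than 2-fold, and 44 of 252 named calls were lost. Without the 3 libraries of few detected genes 3846 were higher, 3562 lower and 1682 past 2-fold, and without ALY688+LPS mouse 4 as well, a setting chosen after seeing the data, 3887, 3787 and 2055. Leaving out single libraries gave 3055 to 3477 higher, 3003 to 3485 lower, 1319 to 1646 past 2-fold, and 0 to 1 genes for the interaction, the 1 without ALY688+LPS mouse 1. DESeq2 called 4 for the interaction. Every call shared with the fit reported kept its direction under every setting run.

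Between the groups, deviations of same-numbered mice correlated from −0.508 to 0.236, 2 of 7 over 0.1. Of these mice, 0 correlated best with their own number. Whether equal numbers mark the same animal was not tested. With the replicate number as a block 2518 genes were higher, 2227 lower and 1119 past 2-fold, and 0 passed for the interaction.

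Adipor1, not called in the fit reported, turned negative with DESeq2's size factors (−0.0126), totals (−0.0508), a stricter filter (−0.0954), DESeq2 (−0.0126), the replicate block (−0.0336), without few-gene libraries (−0.392) and without mouse 4 as well (−0.56), and ran from −0.63 to 0.61 without single libraries. The adiponectin list's median became 0.0204 with totals, 0.12 with globin share as a covariate and 0.0121 in the added setting, and ran from −0.0881 to 0.0303 without single libraries. The red cell median became −0.145 without few-gene libraries and −0.197 in the added setting, and ran from −0.298 to 0.91 without single libraries. The basophil and eosinophil median was 0.115 with the stricter filter, the LXR median 0.00506 with totals, and with globin share as a covariate the NK cell median was −0.0463 and the platelet median 0.0422. The cause was not tested. Counts per library near the floor of 3 limit genes such as Il6, Il10 and Ifnb1.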
